A study of Homo sapiens with 4 samples.

Results

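The genes described here were TGFB2 and TGFB3, ligands of the TGF-beta family, and SMAD3, an intracellular transducer of their signal, which the array annotation carries under its older symbol MADH3. They were selected by name through 3 probes (GI_4507462-S, GI_4507464-S and GI_42476202-S) of 47289 gene probes on the array. The study had itself listed these genes among those raised in the OCT4 and SOX2 knock-downs of the same samples, so their direction there is not independent evidence. All samples were NCCIT cells, a human embryonal carcinoma (hEC) line whose undifferentiated state resembles that of embryonic stem cells, cultured with fetal calf serum. Pools of endoribonuclease-prepared siRNAs (esiRNA) against OCT4, NANOG or SOX2 were delivered with the Hyperfect reagent, the mock control received the reagent without esiRNA, and the labels put the harvest at day 2.5, whereas the study's methods name day 2. Each of the 4 groups had 3 biological replicate arrays, 12 in all. The mock control therefore lacked any esiRNA, and every sample came from a single cell line. The comparisons addressed which signaling genes changed once a factor maintaining the undifferentiated state was silenced.

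TGF-beta ligands are secreted in a latent form, held by latent TGF-beta binding proteins, and become active once released by integrins or thrombospondin. The active ligand brings type I and type II receptor kinases together, and these phosphorylate SMAD2 and SMAD3, which join SMAD4 and regulate genes in the nucleus together with partner transcription factors. In human pluripotent cells SMAD2/3 signaling, driven mainly by Activin and Nodal, is known for its role in the undifferentiated state, while in mesenchymal and smooth muscle cells TGF-beta is known for inducing matrix and contractile genes.

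The promoters are shown because these genes moved together when OCT4 or SOX2 was silenced, factors that bind octamer and SOX motifs. Each sequence is the 250 bases before an annotated start, from RefSeq on GRCh38.p14, written 5′ to 3′ on the gene's strand with matched motifs in capitals. The motifs searched, on both strands and in the 300 bases from 250 before to 50 after each start, were the octamer ATGCAAAT, the SOX core CATTGT, the cAMP response element core ACGTCA and the TATA box TATAAA.
TGFB2 (chr1:218345086-218345335, + strand): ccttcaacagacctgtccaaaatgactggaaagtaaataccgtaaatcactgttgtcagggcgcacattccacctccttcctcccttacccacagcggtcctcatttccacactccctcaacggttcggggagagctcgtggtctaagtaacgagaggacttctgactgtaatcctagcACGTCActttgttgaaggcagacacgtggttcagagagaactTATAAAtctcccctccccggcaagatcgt
TGFB3, nearer to the gene body of 2 starts (chr14:75981996-75982245, - strand): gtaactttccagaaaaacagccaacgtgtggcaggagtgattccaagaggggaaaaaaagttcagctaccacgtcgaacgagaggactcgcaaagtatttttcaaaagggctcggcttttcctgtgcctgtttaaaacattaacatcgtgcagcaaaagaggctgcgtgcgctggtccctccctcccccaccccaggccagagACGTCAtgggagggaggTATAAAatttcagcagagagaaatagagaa
SMAD3, first of 5 starts (chr15:67065352-67065601, + strand): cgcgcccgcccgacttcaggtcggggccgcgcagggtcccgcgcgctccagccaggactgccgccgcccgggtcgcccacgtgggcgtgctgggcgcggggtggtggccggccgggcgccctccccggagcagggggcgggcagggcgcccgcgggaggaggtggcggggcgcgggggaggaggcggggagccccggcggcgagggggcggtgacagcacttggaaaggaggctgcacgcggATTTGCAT
TGFB2 and TGFB3 each held a response element core and a TATA box close to the start. In TGFB2 these lay at -71 to -66 and -29 to -24, and in TGFB3 at -47 to -42 and -30 to -25, counted from the start. The SMAD3 window held neither, but carried the octamer on the opposite strand at -8 to -1, where its reverse complement is printed. Among 35116 promoter windows of the same length, 1.77% held the octamer, 10.8% the SOX core, 7.98% the response element core and 11.5% the TATA box. The exact letters of the SOX core did not occur in any of the 3 windows. Variants of it that SOX factors may also bind were not searched, so absence of a SOX site is not shown. The other TGFB3 start and the other 4 SMAD3 starts held none of the 4 motifs. The motifs were picked with these sequences in view, and a match describes letters only.

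Before the results, some facts on the arrays bear on every value. Replicate arrays correlated at 0.992 to 0.996 over all probes, and arrays of different groups at 0.971 to 0.994. Between 23.7% and 27.2% of probes were detected per array, a probe counting as detected where the scanner software's detection score, which runs to 1 for certain detection, reached 0.99. The OCT4 knock-down arrays were the brightest, with inferred negative-control means of 110.8 to 118.8 signal units against 93.1 to 100.1 in mock. Median probe signals were 97.5 to 104.7 units in mock, 109.1 to 115.2 in the SOX2 and 115.9 to 124.2 in the OCT4 knock-down. Raw readings above mock are therefore no result by themselves, and shares of all probes are given below on normalised signals. Brightness thus moved with the group, and the results were repeated under other scalings. Such repeats show how far a result rests on the scaling, and cannot separate brightness from the group.

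The silenced genes were read first. The POU5F1 probe, which measures OCT4, gave 536.2 to 610.5 signal units in mock and 118.5 to 151.5 in the OCT4 knock-down, where 1 of 3 arrays detected it. It fell by 4.21 on the log2 scale (SE 0.13, limma adjusted p = 1.67e-10). The NANOG probe fell by 1.85 on the log2 scale in the NANOG knock-down (SE 0.10, limma adjusted p = 2.99e-07), from 314.2 to 380.7 units in mock to 162.1 to 184.2. POU5F1 in the NANOG knock-down had a log2 change of -0.42 that did not pass the test (adjusted p = 0.0806). That call rested on the processing, since POU5F1 was called lower there with a larger background offset (limma adjusted p = 0.0101), without background correction (0.000272) and on the rank-invariant scale (0.0074). The OCT4 and SOX2 knock-downs were not separate losses of their own target alone. In the SOX2 knock-down no array detected POU5F1, which was at least 15.2-fold lower than in mock. NANOG was not detected on any OCT4 or SOX2 knock-down array, and was at least 9.34-fold and 8.52-fold lower. The study also reported loss of the other core proteins in both. No probe was named SOX2 through the lists used here, so its silencing is not shown by these values.

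TGFB2 was not detected on any mock array and was detected on all arrays of the OCT4 and SOX2 knock-downs. This ligand is known for its part in heart, eye and craniofacial development. The mock arrays read 117.2, 106.1 and 106.3 signal units, with detection scores of 0.966, 0.944 and 0.917. In the OCT4 knock-down the readings were 206.6, 207.4 and 205.3, each with a score of 0.9993. The mock arrays lay just under the dimmest probe that each of them detected (114.8 to 124), and each OCT4 knock-down array lay above the dimmest detected probe of its own (134.4 to 145.4).

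The SOX2 knock-down arrays read 193.5, 193.1 and 179.8 units for TGFB2, all with a score of 0.9993. The NANOG knock-down arrays read 112.8, 103.2 and 114.2, with scores of 0.858, 0.655 and 0.970, and none was detected. The NANOG knock-down arrays overlapped with mock, whereas neither of the other knock-downs did. Of all probes, 0.486% shared this pattern of detection on every OCT4 and SOX2 knock-down array and on no mock or NANOG knock-down array.

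After background correction and quantile normalisation, TGFB2 had a mean log2 signal of 5.01 ± 0.14 in mock (SD, n = 3), not well above background, and 6.37 ± 0.14 in the OCT4 knock-down. Measured against the dimmest detected signal of the mock arrays, TGFB2 was at least 1.89-fold higher after OCT4 silencing (limma adjusted p = 4.24e-06). The limma p beside a bound, here and below, tests the fitted difference between the groups, and the bound itself was not tested. In the SOX2 knock-down TGFB2 reached 6.59 ± 0.07, at least 2.20-fold higher than mock (adjusted p = 1.03e-06). In the NANOG knock-down it stood at 4.84 ± 0.26 (adjusted p = 0.565), and as neither group detected it no fold is given. The same bound gave at least 2.04-fold for the OCT4 and 2.37-fold for the SOX2 knock-down over the NANOG knock-down, with adjusted p of 1.69e-06 and 4.69e-07.

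**Figure D1:**
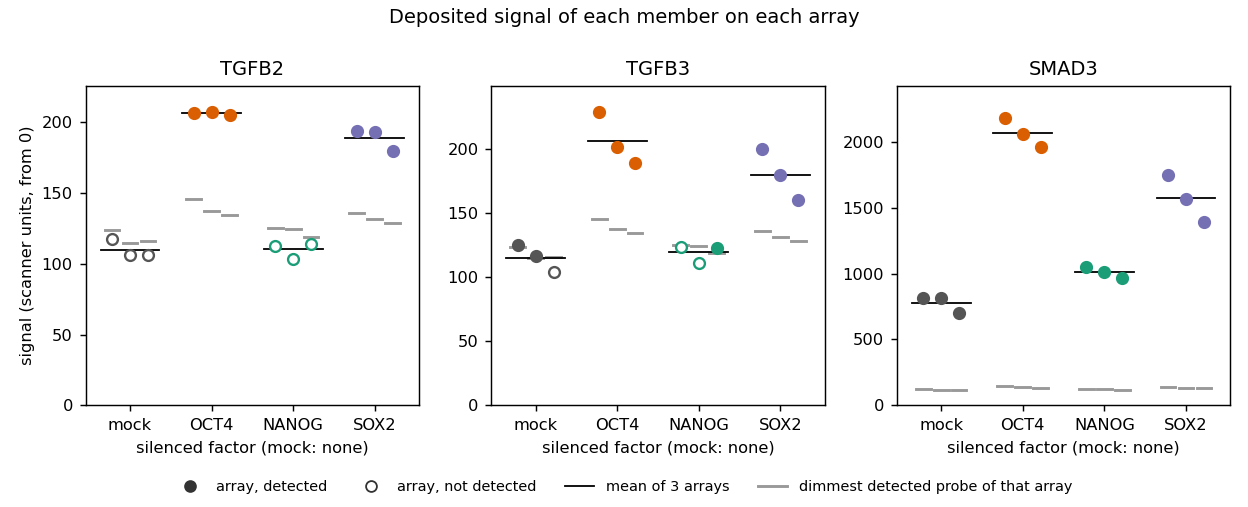
Deposited signal in scanner units (vertical axis from 0) on each of the 12 arrays, by silenced factor, with filled points detected, open points not detected, black lines the mean of 3 arrays and grey ticks the dimmest detected probe of each array. TGFB2 is open on all mock and NANOG knock-down arrays and near 180 to 207 units in the other groups, TGFB3 is mixed in mock and in the NANOG knock-down, and SMAD3 is detected throughout and lowest in mock.

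TGFB3 lay at the edge of detection in mock and rose in the OCT4 and SOX2 knock-downs. This ligand is known for its part in palate and lung development. Its mock arrays read 125.6, 116.7 and 103.9 units with scores of 0.993, 0.993 and 0.862, so 2 of 3 detected it. The OCT4 knock-down arrays read 229.0, 201.7 and 189.0, all detected at 0.9993. Every OCT4 knock-down array exceeded every mock array, and the mock array without detection was the lowest of all 12.

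The SOX2 knock-down arrays gave 199.9, 180.3 and 160.2 units for TGFB3, again all at 0.9993. The NANOG knock-down arrays gave 124.0, 111.3 and 123.3, with scores of 0.987, 0.895 and 0.995, so 1 of 3 detected it. The SOX2 knock-down arrays lay above all mock arrays, and the NANOG knock-down arrays were interspersed with them.

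On the log2 scale TGFB3 averaged 5.30 ± 0.44 in mock, 6.36 ± 0.10 in the OCT4, 6.42 ± 0.17 in the SOX2 and 5.20 ± 0.34 in the NANOG knock-down (SD, n = 3 each). It was 2.07-fold higher in the OCT4 knock-down (log2 change 1.05, SE 0.20, 95% confidence interval 0.61 to 1.49, limma adjusted p = 0.00254), against a mock group in which 2 of 3 arrays detected it and whose mean lay under the dimmest detected signal (5.45). The SOX2 knock-down was 2.17-fold higher (log2 change 1.12, interval 0.68 to 1.55, adjusted p = 0.00168). In the NANOG knock-down the log2 change was -0.10 (interval -0.54 to 0.34, adjusted p = 0.889), a direction that turned without mock replicate 1 (0.05) and without NANOG knock-down replicate 2 (0.07). Without background correction the log2 changes were 0.41 for OCT4 and 0.45 for SOX2, still called. With the methods' t-test on single-probe variances, TGFB3 missed the study's threshold in both knock-downs, and its Benjamini-Hochberg adjusted p was 0.115 for OCT4 and 0.126 for SOX2.

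SMAD3 was detected on all 12 arrays, with a score of 1 on each, and rose after silencing of OCT4 or SOX2. The mock arrays read 812.3, 816.7 and 699.5 units. The OCT4 knock-down arrays read 2181.1, 2056.1 and 1957.4, and the SOX2 knock-down arrays 1750.3, 1566.7 and 1392.4. Both sets lay entirely above mock, and the OCT4 set lay entirely above the SOX2 set before normalisation. The median signals of all probes stood in the same order, so this order is not particular to SMAD3.

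The normalised SMAD3 signal was 9.75 ± 0.09 in mock, 10.59 ± 0.07 in the OCT4 and 10.59 ± 0.02 in the SOX2 knock-down (log2, SD, n = 3 each). Both knock-downs were 1.79-fold above mock (log2 change 0.84, SE 0.07), with limma adjusted p of 1.71e-06 for OCT4 and 1.67e-06 for SOX2. Without normalisation between arrays the log2 change of SMAD3 in the OCT4 knock-down was 1.502, and 1.395 relative to the median of all probes, most of them undetected. It was 0.735 when arrays were scaled to the median of probes detected on all arrays, and 0.734 on the rank-invariant scale.

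SMAD3 in the NANOG knock-down lay between mock and the other knock-downs. Its arrays read 1050.2, 1012.2 and 968.3 units and averaged 9.97 ± 0.06 on the log2 scale. Every NANOG knock-down array exceeded every mock array, as did 9.83% of all probes, and the log2 change was 0.22 (SE 0.07, interval 0.07 to 0.37). This did not pass the test over all probes (limma adjusted p = 0.0913). The call depended on the processing, since the adjusted p was 0.0232 without normalisation between arrays, 0.0286 with a larger background offset, 0.0275 without background correction and 0.0385 over probes detected on at least 3 arrays.

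**Figure D2:**
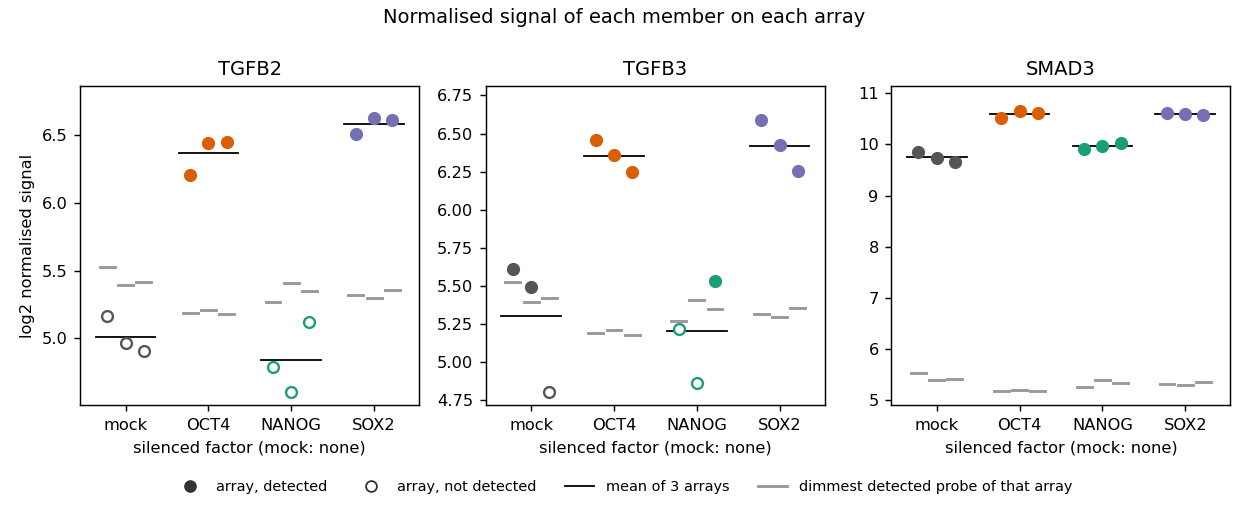
Log2 normalised signal (vertical axis, not from 0) of the same 12 arrays after normexp background correction and quantile normalisation, with symbols as for the deposited signals. SMAD3 means are 9.75 in mock, 9.97 in the NANOG knock-down and 10.59 in both other knock-downs, and the TGFB2 arrays of the SOX2 knock-down lie above those of the OCT4 knock-down.

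All 3 genes were called higher in both the OCT4 and the SOX2 knock-down, and none was called in the NANOG knock-down. Over all probes, 6.96% were called higher in the OCT4, 6.26% in the SOX2 and 3.05% in the NANOG knock-down. In both the OCT4 and the SOX2 knock-down together, 5.42% were called higher, and 3.69% were so called without a call in the NANOG knock-down. On log2 signals every array lay above every mock array for 12.7% of probes in the OCT4 and 11.2% in the SOX2 knock-down. The fitted changes of TGFB2, TGFB3 and SMAD3 in the OCT4 knock-down were exceeded by those of 1.03%, 1.58% and 2.28% of probes. For TGFB2 this is the fitted log2 change of 1.36 and not the bound of at least 1.89-fold, so its place before the other genes is not settled. These knock-downs shared the same mock arrays, so their values are given side by side. In RNA from whole cultures, more cells of a kind that makes a transcript and more of it per cell cannot be told apart.

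A direct test of the OCT4 against the SOX2 knock-down called none of the 3 genes, and no probe at all (0%) by limma over the array, where 3380 probes had an unadjusted p under 0.05. The log2 difference, OCT4 minus SOX2, was -0.22 for TGFB2 (95% interval -0.48 to 0.05, adjusted p = 0.774). It was -0.07 for TGFB3 (interval -0.50 to 0.37, adjusted p = 0.983) and 0.00 for SMAD3 (interval -0.15 to 0.15, adjusted p = 1). The order of these knock-downs rested on the scaling. Without normalisation between arrays the differences were 0.15 for TGFB2, 0.30 for TGFB3 and 0.42 for SMAD3, and the last passed the test (adjusted p = 0.0206). This setting was chosen after the data were seen.

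Each gene did differ between the NANOG knock-down and the other knock-downs. TGFB3 was 2.22-fold higher in the OCT4 than in the NANOG knock-down (limma adjusted p = 0.00152) and 2.33-fold higher in the SOX2 knock-down (adjusted p = 0.000988), though only 1 of 3 NANOG knock-down arrays detected it. Their mean log2 signal of 5.20 lay under the 5.34 of the dimmest detected signal there. SMAD3 was 1.54-fold higher in each, with adjusted p of 3.38e-05 and 3.29e-05. Of all probes, 5.98% were called higher in the OCT4 and 5.75% in the SOX2 than in the NANOG knock-down. In order of level, the SOX2 and OCT4 knock-downs thus stood above the NANOG knock-down and mock for each gene, and the neighbours within each of these pairs were not separated by this fit.

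The deposited group means, which the authors made after background subtraction and rank-invariant scaling, held a SMAD3 signal of 689.1 in mock, 1190 in the OCT4, 778.5 in the NANOG and 1243 in the SOX2 knock-down (authors' means). For TGFB2 they held 56.9 in the OCT4 and 69.9 in the SOX2 knock-down, and for TGFB3 56.3 and 61.7. Both ligands had no value in mock and the NANOG knock-down. A similar scale was rebuilt from the 12 arrays, with a floor of 20. Its median ratio to the deposited means was 0.984 in mock, 0.947 in the OCT4, 0.977 in the NANOG and 0.903 in the SOX2 knock-down. Rebuilt SMAD3 means were 1127 in the OCT4 and 1123 in the SOX2 knock-down, an order opposite to the deposited means. The rebuilt scale put TGFB2 at the floor on all mock and NANOG knock-down arrays. On it TGFB3 lay at 22.6 ± 2.9 in mock and 20.9 ± 1.6 in the NANOG knock-down (SD, n = 3).

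**Figure D3:**
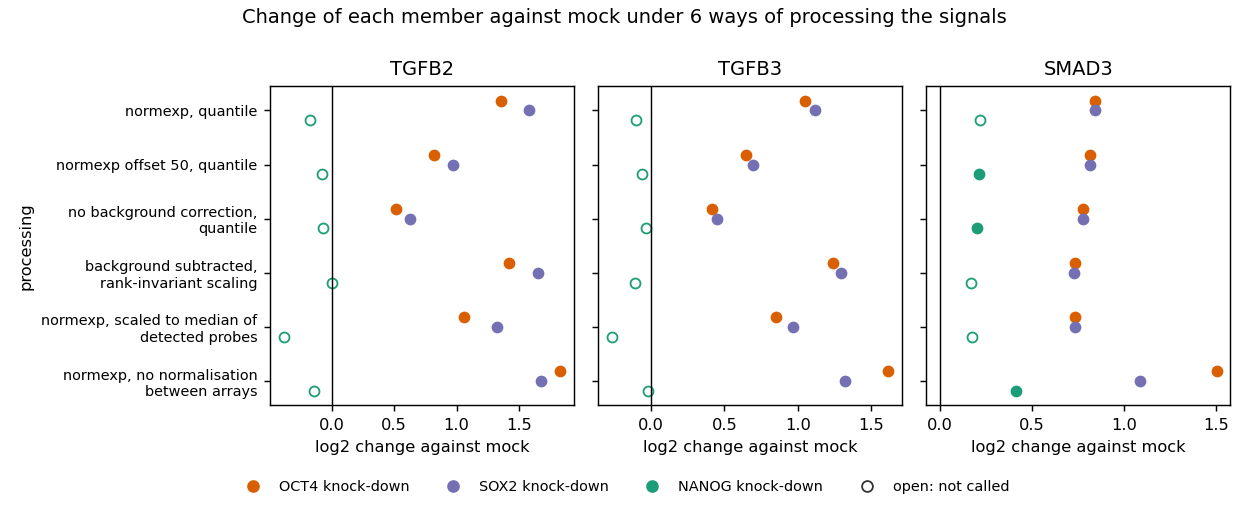
Log2 change of each gene against mock (horizontal axis) under 6 ways of processing the signals (vertical axis), filled where limma called the change. Changes in the OCT4 and SOX2 knock-downs are positive and called in every row, TGFB2 and TGFB3 shrink where background is left in, and SMAD3 in the NANOG knock-down is called in 3 rows. TGFB2 changes are fitted values against a group in which no array detected the probe.

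The other genes of the pathway could be read only in part. Of 59 genes in a list of the pathway by role, 28 had a probe named here, and probe names came from lists of genes the study had called changed in the OCT4 or NANOG knock-down of these arrays. The counts over named genes are therefore descriptions, here and for each role below. In the OCT4 and SOX2 knock-downs 0 of the 28 were left uncalled, an outcome that this naming made likely beforehand. The medians of named genes are of genes so selected, whereas those of all probes are not. In the OCT4 knock-down 24 of the 28 were called higher and 4 lower, and the same counts held in the SOX2 knock-down, where 7.48% and 6.81% of all probes were called lower. In the NANOG knock-down 9 were higher, 2 lower and 17 not called, beside 3.08% of all probes called lower. The median log2 change was 1.73, 1.69 and 0.05 in the OCT4, SOX2 and NANOG knock-downs, against medians over all probes of -0.01, -0.01 and 0.00. With the 8 genes undetected in mock set to their bounds, the medians were 1.63 for OCT4 and 1.56 for SOX2.

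Silencing of OCT4 or SOX2 raised all 5 named genes of latency and activation. THBS1, thrombospondin-1, which can activate latent TGF-beta, was 12.7-fold higher in the OCT4 and 13.8-fold higher in the SOX2 knock-down, against a mock group in which 1 of 3 arrays detected it. Its NANOG knock-down change of -0.11 (log2) was not called. ITGAV, the alpha-v integrin chain, was undetected in mock and at least 3.10-fold and 3.43-fold higher. LTBP1, a latent TGF-beta binding protein, rose 3.17-fold and 3.23-fold, and it alone of the 5 was also called in the NANOG knock-down (log2 change 0.98, limma adjusted p = 0.00191).

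TGFBR3, the co-receptor betaglycan, was the only receptor with a named probe. It fell by 0.28 on the log2 scale in the OCT4 knock-down (adjusted p = 0.0103) and by 0.44 in the SOX2 knock-down (adjusted p = 0.000358), but without normalisation between arrays it was higher by 0.52 in the OCT4 knock-down (adjusted p = 0.00477). In the NANOG knock-down it rose by 0.60 (adjusted p = 9.89e-05).

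Negative regulators did not all follow the same direction. SMAD6, an inhibitory SMAD, rose in all 3 knock-downs, 2.33-fold in the OCT4 and 2.22-fold in the SOX2 knock-down, and by 1.31 on the log2 scale in the NANOG knock-down. PMEPA1, a TGF-beta induced inhibitor of SMAD signaling, was 5.11-fold and 5.40-fold higher with OCT4 and SOX2 silenced, and 2.19-fold higher with NANOG silenced (limma adjusted p = 1.28e-05). TGIF2, a co-repressor, was lower by 0.71 and 0.64 on the log2 scale in the OCT4 and SOX2 knock-downs, calls that were lost without normalisation between arrays.

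Among SMAD partners, RUNX1 was undetected in mock and at least 3.26-fold and 3.25-fold higher with OCT4 and SOX2 silenced, and JUN at least 4.59-fold and 5.39-fold. JUN was also at least 1.598-fold higher in the NANOG knock-down (limma adjusted p = 1.75e-06). FOS was lower in all 3 knock-downs, with log2 changes of -0.90 (OCT4), -0.76 (SOX2) and -1.46 (NANOG). SP1, the fourth partner named, was lower in the OCT4 and SOX2 knock-downs. Without normalisation between arrays none of the 4 lower genes of the list was called lower in the OCT4 or SOX2 knock-down.

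OCT4 or SOX2 silencing raised all 10 named TGF-beta targets, with median log2 changes of 2.73 and 2.81. TAGLN, a smooth muscle actin-binding protein, was 39.4-fold and 44.1-fold higher. ACTA2, smooth muscle actin, was 15.44-fold and 14.99-fold higher, and 1 of 3 mock arrays detected it. CDKN2B, an inhibitor of cyclin-dependent kinases, was undetected in mock and at least 10.4-fold and 11.04-fold higher. In the NANOG knock-down 3 targets were higher, 1 lower and 6 not called.

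**Figure D4:**
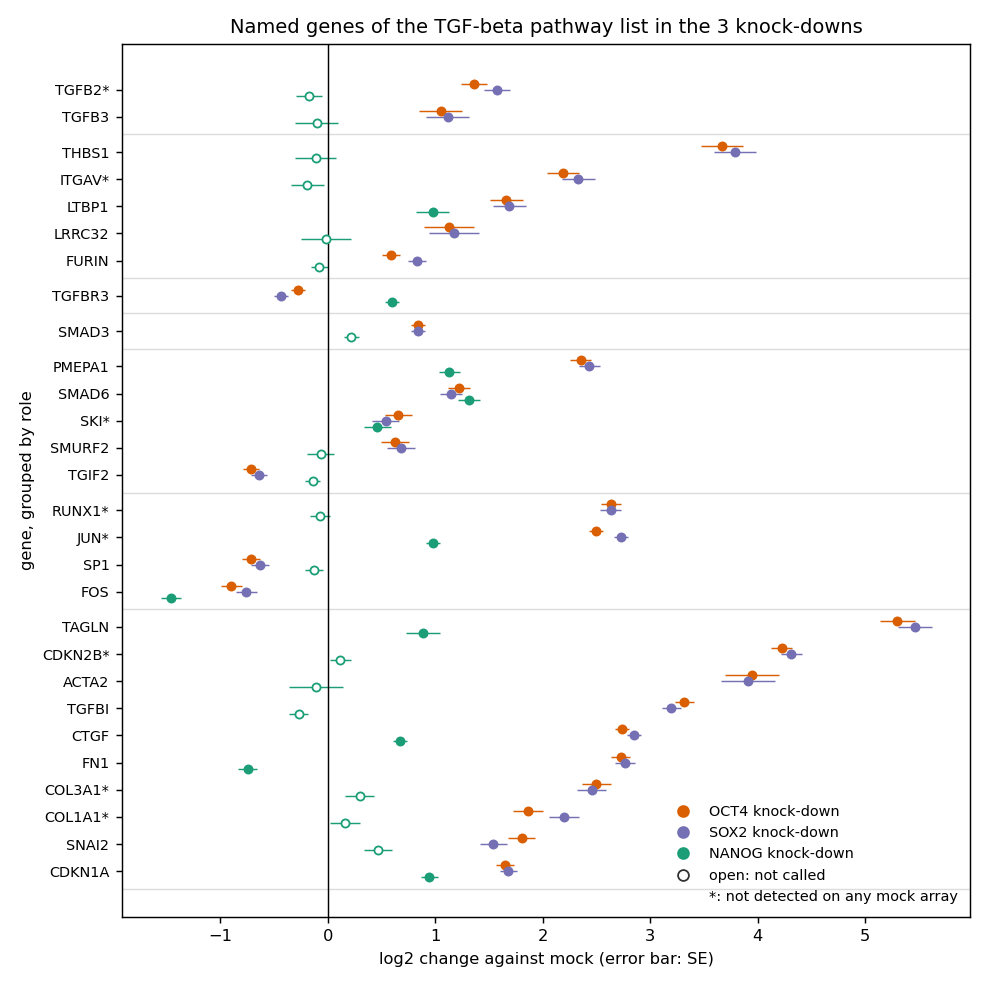
Log2 change against mock (horizontal axis, error bars SE) of the 28 named pathway genes, grouped by role, with open points for changes not called and an asterisk for genes undetected on every mock array, whose points are fitted values and not bounds. The OCT4 and SOX2 knock-down points lie close together for most genes, whereas the NANOG points are nearer to 0 for the ligands, latency genes and most targets.

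Markers of cell state were called in all 3 knock-downs, in numbers that differed between lists. All 9 named markers of undifferentiated cells were lower in the OCT4 and SOX2 knock-downs, and 7 of 9 in the NANOG knock-down. Of all probes, 7.48%, 6.81% and 3.08% were called lower in the OCT4, SOX2 and NANOG knock-downs, and 6.96%, 6.26% and 3.05% higher. Every named marker was called in the OCT4 and SOX2 knock-downs, an outcome made likely by naming probes from the study's lists of changed genes. Without normalisation between arrays LIN28A was not called in the OCT4 (limma adjusted p = 0.901) or SOX2 knock-down (0.159), nor DNMT3B (0.0515) and TDGF1 (0.504) in the NANOG knock-down. On the rank-invariant scale TDGF1 was not called in the NANOG knock-down (0.0619). Of mesoderm and smooth muscle markers, 8 of 8 named were higher after OCT4 or SOX2 silencing and 2 of 8 in the NANOG knock-down. Of fibroblast markers 3 of 4 were higher after OCT4 or SOX2 silencing, THY1 being lower. THY1 read 605.8 to 661.5 units in mock, and the study lists it as enriched in human embryonic stem cells, so it is not specific to fibroblasts. Of 2 named trophoblast markers, GATA3 was higher and TFAP2A lower after OCT4 or SOX2 silencing, and no endoderm or neural marker was named. With NANOG silenced, THY1 and GATA3 were lower (log2 changes -1.82 and -0.65, limma adjusted p = 2.08e-07 and 7.05e-05), and TFAP2A was higher (1.58, adjusted p = 1.89e-06). Signals of each list were also summed as raw readings, without normalisation and with background left in. The raw sum of the undifferentiated list was 22951 to 25347 units in mock, 7239 to 9531 in the OCT4, 5128 to 6658 in the SOX2 and 16929 to 20255 in the NANOG knock-down. That of the mesoderm and smooth muscle list was 1279 to 1315, 11954 to 13590, 8789 to 10057 and 2906 to 3018 in the same order. In the NANOG knock-down most of this sum was HAND1, which alone read 2007 to 2109 units, against 497.7 to 591.4 in mock. ACTC1, COL1A1, MSX1 and RUNX1 were undetected on every mock array. Some of these genes, such as ACTA2 and TAGLN, are also on the pathway list. These markers were named through the same study lists, and their part in the values of TGFB2, TGFB3 and SMAD3 was not tested.

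Across the 12 arrays the log2 signals of the genes followed each other, with a Pearson correlation of 0.945 for TGFB2 and TGFB3, 0.947 for TGFB2 and SMAD3 and 0.909 for TGFB3 and SMAD3. About their group means the correlations were 0.572, 0.673 and 0.549, over arrays that share brightness. Among 13178 other probes detected on at least 3 arrays, the named genes with the most similar pattern to TGFB2 were CSRNP1 (0.995), POF1B (0.991), SPP1 (0.989) and LHX2 (0.989). For TGFB3 these were ETNK1 (0.976), ADAP1 (0.957) and ZFP36 (0.957), and for SMAD3 DPYSL4 (0.997), ABR (0.995), RNF43 (0.994) and CMTM3 (0.993). Of the 5 nearest probes of each gene, 4 in all had no name here. These correlations are over 12 arrays in 4 groups and carry no test.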

How the data were processed

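The authors hybridised biotinylated cRNA to Illumina BeadChips, stained it with a Cy3 conjugate of streptavidin, and exported signals with BeadStudio 1.0, per the labels. The deposited array files hold the mean bead intensity of each probe, without background subtraction, and a detection score. A deposited table of group means had been background-subtracted and rank-invariant normalised by the authors. The chip of each array is not given in the sources used here, so no batch could be formed, and the number of arrays limits precision.

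Signals of 47289 gene probes, 4 control probes left out, were corrected with limma 3.58.1 (R 4.3.3, nec, offset 16, negative controls inferred from detection), quantile normalised and put on the log2 scale. limma with a coefficient per group was fitted to all 12 arrays without a filter, with Benjamini-Hochberg adjustment and calls at an adjusted p under 0.05. It took the place of the study's tests and was checked on simulated data. Probes without detection at 0.99 in a group were given as bounds. Supplementary lists named 2985 probes, 2481 of them through RefSeq accessions; updated symbols came from RefSeq.

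Members and lists were chosen with earlier results of these data known. The text names the members, the silenced genes and the 5 probes most like each member. Of named pathway genes it gives the 3 largest called changes per role and every detected SMAD, ligand, receptor and latent binding protein. Only 1 of 6 receptor-regulated or common SMADs and 1 of 5 receptors had a named probe, and the others were not read. Alternatives covered background, scaling, filter, test, samples, replicate block, left-out arrays and detection threshold. The TGFB1 probe was not analysed here, and 1 further gene, left out of the list of 59 pathway genes, is not reported here.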

Additional observations from a re-analysis of the deposited data

How the results depend on the processing

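TGFB2 and SMAD3 in the OCT4 and SOX2 knock-downs kept their direction and call under each alternative run, left-out arrays included. TGFB3 did so except under the methods' t-test, run on the main-setting log2 signals and not on the study's scale. There its log2 changes of 1.051 and 1.117 were not called. SMAD3 in the NANOG knock-down was called with values of 0.41 without normalisation between arrays, 0.21 with offset 50, 0.20 without background correction and 0.22 with the detection filter, which tests 13179 probes. Between the OCT4 and SOX2 knock-downs, SMAD3 turned to -0.00104 under median scaling, and without normalisation, an alternative chosen after the data were seen, TGFB2 turned to 0.15, TGFB3 to 0.30 and SMAD3 was called at 0.42. With 1 array left out, the TGFB3 change in the NANOG knock-down ranged from -0.350 to 0.0703 (positive without mock replicate 1 or NANOG replicate 2), the OCT4 minus SOX2 difference from -0.150 to 0.0178 for TGFB3 and -0.0293 to 0.0400 for SMAD3, and probes called lower in the NANOG knock-down from 950 (without NANOG replicate 2) to 1506. At a detection score of 0.95, TGFB2 was detected on 1 mock and 1 NANOG knock-down array and TGFB3 on 2 NANOG knock-down arrays, and at the stricter detection threshold TGFB3 on 0 arrays of either group.

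Counts of probes called moved with the scaling and with the test. In the main setting 3293 were higher and 3537 lower in the OCT4, 1442 and 1458 in the NANOG, and 2959 and 3219 in the SOX2 knock-down. Median scaling, which shifted the median of all probes by -0.66, -0.21 and -0.28, gave 38689, 3302 and 20423 lower, in the same order. No normalisation gave 10867 higher and 536 lower, 2605 and 452, and 5104 and 938, with 0 pathway genes lower in the OCT4 and 0 in the SOX2 knock-down. Relative to the median of all probes, most of them undetected, the OCT4 knock-down changes were 1.72 for TGFB2, 1.51 for TGFB3 and 1.395 for SMAD3. These values are the same under either scaling by construction, since median scaling shifts all probes of an array alike. In the NANOG knock-down 929 were higher on the rank-invariant scale, and 909 higher and 909 lower with the compared groups alone. The methods' t-test was run on the log2 signals of the main setting. At its own threshold it called 1555 and 1233, 458 and 405, and 1461 and 1160. After Benjamini-Hochberg it called 2031 and 2077, 206 and 253, and 1670 and 1631, with 4 pathway genes higher and 1 lower in the NANOG knock-down. The cause of these differences was not tested.

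The replicate block changed no call of TGFB2, TGFB3 or SMAD3. For TGFB2, TGFB3 and SMAD3 in the OCT4 knock-down it left the changes at 1.36, 1.051 and 0.84. The replicate numbers name the arrays and were not treated as pairs, since correlations of same-numbered arrays ran from -0.43 to 0.44 and 0 of 12 arrays lay closest to its own number in every other group. No pathway gene had more than 1 named probe, and the slide block was not run because the files used here do not give the slide. Signal over background limits TGFB2 and TGFB3 in mock and the NANOG knock-down, where a change under the dimmest detected signal was not detectable.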
